A study of Mus musculus with 6 samples.

Results

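Metallothioneins are small, cysteine-rich proteins that bind zinc and copper. The 3 genes described here, Mt1, Mt2 and Mt3, were taken by symbol from a table of 23337 genes. Mt3 was chosen from its measured values, because it differs between the treated groups. Its levels, and the contrast between the treated groups for all 3 genes, are therefore given as a description with no test. All 3 passed the filter on low counts. The fourth gene of the cluster, Mt4, a form known from stratified epithelium, had 0 counts in all 6 libraries, which allows at most 0.0459 CPM (counts scaled to library size; the limit is 3 counts in the shallowest library).

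The libraries came from cardiomyocytes, the muscle cells of the heart, of wild-type mice. An adeno-associated virus (AAV) had been injected at postnatal day 1, and the cells were sorted at 4 weeks of age after the hearts had been digested by perfusion on a Langendorff apparatus. The virus carried GFP in AAV-GFP, the control, and XBP1S or ATF6N in the treated groups, AAV-XBP1S and AAV-ATF6N. These names usually stand for the spliced, active form of XBP1 and the nuclear fragment of ATF6, both transcription factors of the unfolded protein response. All groups share the virus injection, and each has 2 libraries. The sources used here do not give the promoter in the vectors, the sex of the mice or the number of mice per library, so p-values measure only the spread between these libraries, which may be technical.

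Several measured facts of the libraries bear on all the results. Total counts ran from 67702482 to 112049342. The 10 cardiomyocyte markers, Myh6 and Tnnt2 among them, summed to 123000 and 127000 CPM in the control, 98900 and 105000 CPM with XBP1S and 142000 and 144000 CPM with ATF6N, and none was at 0. In AAV-XBP1S, where Mt1 and Mt2 were lowest, 8 of the 10 had a log2 fold change below 0 (median -0.40) and none passed. In AAV-ATF6N only 4 of the 10 had one above 0 (median -0.09) and none passed. Myh6 had means of 32100 CPM in the control and 65800 CPM in AAV-ATF6N, and Tnnt2 19500 and 12600 CPM. The part of these markers in the metallothionein values was not tested. Endothelial markers summed to 933 and 1160 CPM in the control, 1330 and 1500 CPM with XBP1S and 600 and 645 CPM with ATF6N, and none of the 8 was at 0 in any library. Replicate 1 of AAV-GFP stood apart on the leading principal component, and 9.21% of its counts fell on genes of 400 to 700 bases, against 4.23% to 6.94% in the other 5 libraries. The ribosomal precursor Rn45s stood at 3840 CPM in that library, which also had the highest Mt1 and Mt2, at 1190 CPM in AAV-XBP1S replicate 1 and at 330 to 425 CPM in the other 4. Its part in the control values was not tested. The Y-linked genes Ddx3y, Eif2s3y, Kdm5d and Uty summed to 175 and 186 CPM in AAV-ATF6N, 31.6 and 43.0 CPM in AAV-GFP and 0.0215 and 0 CPM in AAV-XBP1S. Xist, the RNA of the inactive X chromosome, stood at 0.0919 and 0.197 CPM in AAV-ATF6N, 7.88 and 24.6 CPM in AAV-GFP and 20.2 and 43.1 CPM in AAV-XBP1S. The sex of the cells, as these genes show it, therefore moves with the groups, and an effect of sex and one of the virus cannot be told apart. In bulk RNA, a change in the share of a cell type and a change of RNA per cell cannot be told apart either. The delivered genes stood higher in the libraries named after them: Xbp1 stood at 98 and 115 CPM in AAV-GFP and 160 and 166 CPM in AAV-XBP1S, and Atf6 at 44.9 and 70.6 CPM in AAV-GFP and 158 and 162 CPM in AAV-ATF6N. Neither difference passed (edgeR adjusted p = 0.307 for Xbp1 and 0.126 for Atf6), and Xbp1 also stood at 145 and 152 CPM in AAV-ATF6N.

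As background, Mt1 and Mt2 are made in most tissues. Their transcription rises with zinc through the factor MTF1, which binds short metal response elements (MREs) in their promoters, and with glucocorticoids, cytokines and oxidative stress. In the mouse heart they are the inducible forms, and extra metallothionein in heart muscle is known to protect it against oxidative damage. Mt3 was found in brain as a growth inhibitory factor and, unlike the other forms, is known for weak induction by metals.

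The genes lie in 1 cluster on mouse chromosome 8, all on the plus strand, in mm10. In the deposited table Mt3 spans 94152607 to 94154148, Mt2 94172618 to 94173567 and Mt1 94179089 to 94180327, each with 3 exons and 538, 556 and 542 bases of exon. The start of Mt2 lies 6.47 kb before that of Mt1, and the start of Mt3 lies 20 kb before that of Mt2. The promoters are printed because the libraries with the highest Mt3 had the lowest levels of its neighbours Mt1 and Mt2. Each runs 5′ to 3′ from 250 bases before to 50 after the gene's start, on the plus strand (RefSeq, GRCm38.p6, the assembly behind mm10). Capitals mark the MRE core, searched on both strands as TGCACNC or TGCGCNC; no core overlaps another.
Mt1, chr8:94178839-94179138: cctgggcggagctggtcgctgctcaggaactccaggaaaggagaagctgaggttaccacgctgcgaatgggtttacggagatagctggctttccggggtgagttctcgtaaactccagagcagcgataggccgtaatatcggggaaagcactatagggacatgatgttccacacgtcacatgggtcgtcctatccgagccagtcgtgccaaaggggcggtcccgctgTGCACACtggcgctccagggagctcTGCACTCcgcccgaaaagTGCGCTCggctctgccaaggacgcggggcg
Mt2, chr8:94172368-94172667: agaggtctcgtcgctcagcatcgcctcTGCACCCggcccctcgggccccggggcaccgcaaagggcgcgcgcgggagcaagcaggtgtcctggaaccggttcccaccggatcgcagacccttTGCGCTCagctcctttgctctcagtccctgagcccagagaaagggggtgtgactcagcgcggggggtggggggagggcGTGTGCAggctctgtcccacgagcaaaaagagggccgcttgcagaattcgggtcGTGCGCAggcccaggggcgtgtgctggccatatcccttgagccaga
Mt3, chr8:94152357-94152656: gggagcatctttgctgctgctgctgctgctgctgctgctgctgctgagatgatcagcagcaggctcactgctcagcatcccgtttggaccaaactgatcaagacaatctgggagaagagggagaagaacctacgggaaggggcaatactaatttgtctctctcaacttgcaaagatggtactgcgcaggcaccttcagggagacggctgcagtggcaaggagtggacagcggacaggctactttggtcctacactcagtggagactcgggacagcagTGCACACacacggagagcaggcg

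The Mt2 window held 4 cores, the Mt1 window 3 and the Mt3 window 1. Each window follows the annotated start of its gene. Sequence outside the windows was not searched, so elements there are not counted. Of 32851 promoter windows of the same length, 25.7% held at least 1 core, 1.97% at least 3 and 0.517% at least 4. Counted from the first base of the gene as 1, with negative numbers before it, the matches began at -23, 3 and 21 in Mt1, at -223, -128, -50 and 5 in Mt2 and at 28 in Mt3. Motifs of the delivered factors were searched too. TGACGTG, the core of the unfolded protein response element, was found once, at -79 on the minus strand of Mt1, and in 2.01% of all windows. CCACG, the part of the ER stress response element that XBP1 and ATF6 contact, was found at -195 in Mt1 and at -34 in Mt2, and in 32.8% of all windows. Neither motif was in the Mt3 window, and the whole element, CCAAT and CCACG with 9 bases between them, was in none of the 3 and in 0.119% of all windows. The antioxidant element TGACNNNGC was found at -79 in Mt2 and in 12.4% of all windows, and the glucocorticoid receptor motif TGTTCT was in none of the 3 and in 19.0% of all windows.

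Mt3 had its highest level in AAV-XBP1S. It had 157 and 58 counts in the control, 1717 and 916 with XBP1S and 84 and 48 with ATF6N, replicate 1 first. On the scale of CPM these are 1.6 and 0.814 in the control, 18.5 and 11.2 with XBP1S and 1.04 and 0.735 with ATF6N. Both AAV-XBP1S libraries lay above all others, and the AAV-GFP and AAV-ATF6N libraries overlapped. The mean of 14.8 ± 5.13 CPM (SD, n = 2) in AAV-XBP1S was 12.3-fold that of AAV-GFP (1.2 ± 0.553 CPM) and 16.8-fold that of AAV-ATF6N (0.885 ± 0.212 CPM). The fitted log2 fold change over AAV-GFP was 3.61 in AAV-XBP1S and -0.45 in AAV-ATF6N, and AAV-ATF6N against AAV-XBP1S had -4.06. The authors' deposited table gives Mt3 log2 fold changes of 3.61 in AAV-XBP1S and -0.44 in AAV-ATF6N. Leaving out any 1 of the 6 libraries kept the AAV-XBP1S value between 3.24 and 4.18, while that of AAV-ATF6N was 0.13 without AAV-GFP replicate 1. The smallest count, 48 in AAV-ATF6N replicate 2, has an exact Poisson 95% interval of 35.4 to 63.6 counts. That interval covers counting error only.

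**Figure D1:**
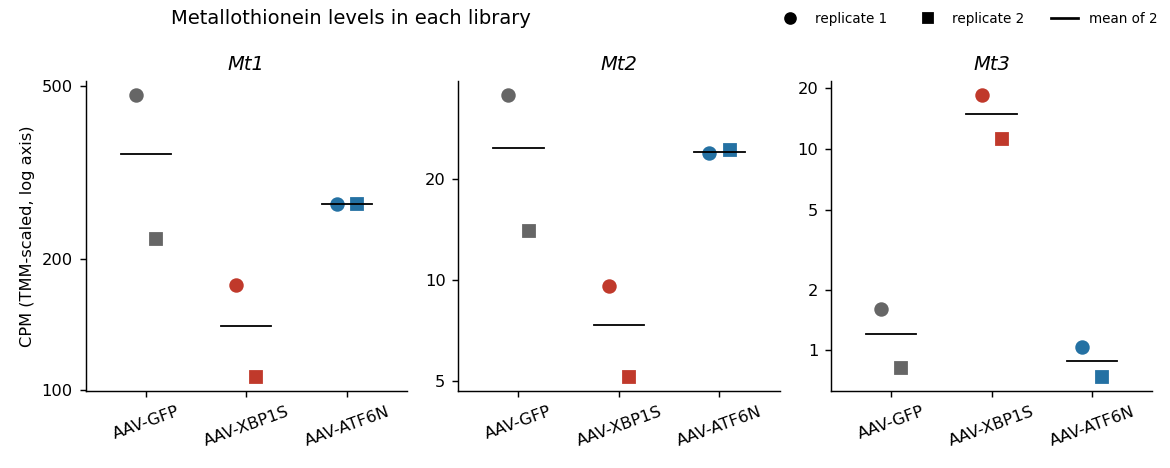
Level of Mt1, Mt2 and Mt3 in CPM (log axis, a separate scale for each gene) in the 6 libraries; symbols are libraries and bars the mean of 2. Both AAV-XBP1S libraries are the lowest for Mt1 and Mt2 and the highest for Mt3.

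Mt1, the most abundant member, was lower in AAV-XBP1S, without passing the test. Its level was 477 and 222 CPM in the control, 174 and 107 CPM with XBP1S and 268 and 268 CPM with ATF6N. Both AAV-XBP1S libraries lay below both of the control, and both AAV-ATF6N libraries lay between the control libraries, which differ more from each other than any other pair of replicates. How often other genes separate AAV-XBP1S from AAV-GFP in this way was not counted. The means were 350 ± 180, 141 ± 47.2 and 268 ± 0.168 CPM (SD, n = 2 each), so that AAV-GFP had 2.49-fold the level of AAV-XBP1S. The log2 fold change was -1.31 (SE 0.40; edgeR quasi-likelihood test, adjusted p = 0.302) with XBP1S and -0.38 (SE 0.39; edgeR adjusted p = 0.604) in AAV-ATF6N.

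Mt2, the second ubiquitous form, was also lowest in AAV-XBP1S, without passing the test. Its level was 35.5 and 14.0 CPM in the control, 9.59 and 5.13 CPM with XBP1S and 23.8 and 24.4 CPM with ATF6N. Again the AAV-XBP1S libraries were the lowest and did not overlap with the control, and the AAV-ATF6N libraries lay between the control libraries. As for Mt1, how often other genes separate AAV-XBP1S from AAV-GFP in this way was not counted. The group means were 24.7 ± 15.2 CPM in the control, 7.36 ± 3.15 CPM with XBP1S and 24.1 ± 0.408 CPM with ATF6N (SD, n = 2 each), so that AAV-GFP had 3.36-fold the level of AAV-XBP1S. The log2 fold change was -1.75 (SE 0.49; edgeR adjusted p = 0.268) with XBP1S and -0.04 (SE 0.47; edgeR adjusted p = 0.970) in AAV-ATF6N.

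Neither Mt1 nor Mt2 passed an adjusted p of 0.05 in either comparison. In AAV-XBP1S against AAV-GFP the test called 46 of 14587 genes (0.315%; 26 higher and 20 lower), and 11.6% of genes had an unadjusted p under 0.05. In AAV-ATF6N against AAV-GFP it called 75 (0.514%), with 13.5% under an unadjusted 0.05. The call in AAV-XBP1S depends on the test, the processing and the libraries used, and the size of the change on single libraries. DESeq2, which called 520 of all genes, called both Mt1 (adjusted p = 0.0416) and Mt2 (0.0134). The authors' deposited table gives Mt1 an adjusted p of 0.157 and Mt2 one of 0.0397. Without AAV-GFP replicate 2, which leaves the high control library alone, the log2 fold changes were -1.74 for Mt1 and -2.25 for Mt2. Without AAV-GFP replicate 1 they were -0.66 and -0.93. In AAV-ATF6N the direction itself rests on the control: without AAV-GFP replicate 1 the log2 fold changes were 0.27 for Mt1 and 0.78 for Mt2, and with library totals alone that of Mt2 was 0.051. The comparisons of both treated groups share the AAV-GFP libraries. Set directly against each other, with no test, AAV-ATF6N had 1.91-fold the level of AAV-XBP1S for Mt1 and 3.27-fold for Mt2.

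**Figure D2:**
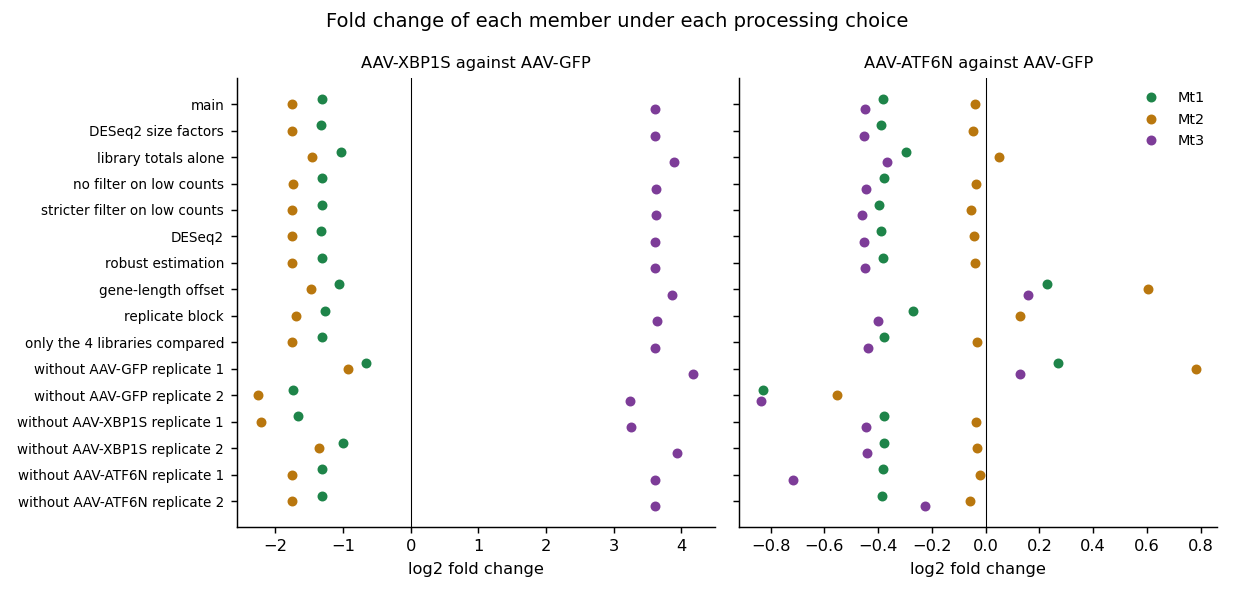
Log2 fold change against AAV-GFP of Mt1, Mt2 and Mt3 (points) under the fit of all 6 libraries (main) and each alternative (rows); the panels have different scales. In AAV-XBP1S Mt1 and Mt2 stay below 0 and Mt3 above 3, and in AAV-ATF6N the points of each gene lie on both sides of 0.

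Short transcripts as a class had fold changes below those of all genes in both comparisons with AAV-GFP, and the members are short. The 389 tested genes of 400 to 700 bases had a median log2 fold change of -0.42 in AAV-XBP1S and -0.72 in AAV-ATF6N, against -0.01 and -0.02 over all genes tested. In AAV-XBP1S 8.48% of them had a log2 fold change below -1, where Mt1 and Mt2 are, and 4.63% were above 1, where Mt3 is. In AAV-ATF6N Mt1 (-0.38), Mt2 (-0.04) and Mt3 (-0.45) were all above the median of their length class. With a trend over gene length removed from each library, Mt1 and Mt2 had log2 fold changes of -1.06 and -1.47 in AAV-XBP1S. The median over all genes there was -0.13. Both passed (edgeR adjusted p = 0.0110 and 0.0225), in a fit that called 407 genes, 116 higher and 291 lower. In AAV-ATF6N the same fit gave Mt1 and Mt2 0.23 and 0.61 (edgeR adjusted p = 0.314 and 0.195). It gave Mt3 3.86 in AAV-XBP1S and 0.16 in AAV-ATF6N.

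**Figure D3:**
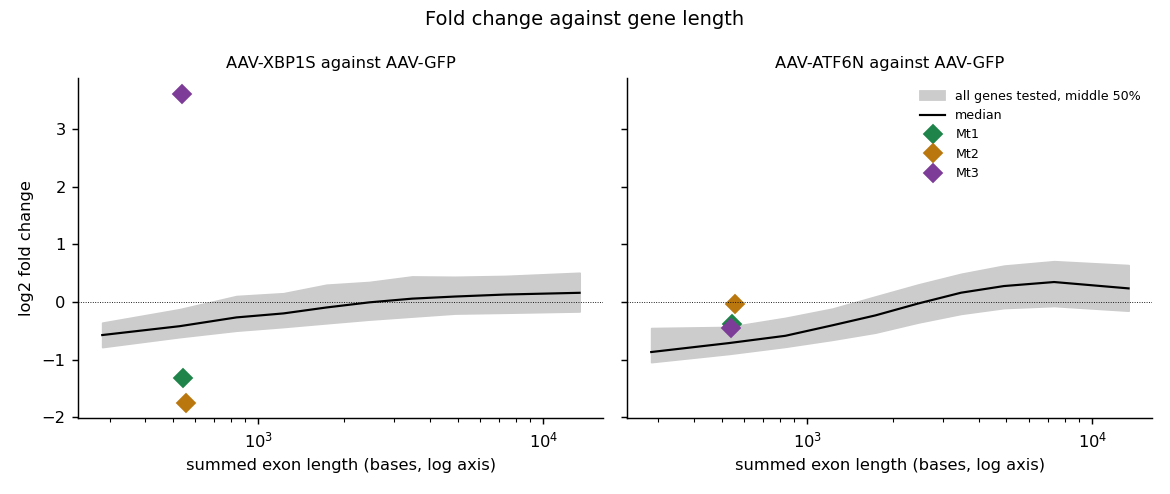
Log2 fold change against AAV-GFP by summed exon length (log axis), as the median (line) and middle 50% (band) of all genes tested in length bins, with Mt1, Mt2 and Mt3 as diamonds. In AAV-XBP1S Mt1 and Mt2 lie below the band and Mt3 above it, at lengths where the median is -0.42.

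Ratios between members within a library do not depend on how libraries are scaled, and since the members have nearly the same length they are little touched by a length trend. They are given per length, as ratios of TPM, a unit that scales counts by gene length and library. Mt2 was 7.25% and 6.13% of the Mt1 level in the control, 5.37% and 4.67% with XBP1S and 8.65% and 8.85% with ATF6N. The groups did not overlap, with AAV-XBP1S lowest and AAV-ATF6N highest. With 2 libraries against 2 no exact permutation test can pass 0.05, and none was run. How often other genes or gene pairs separate the groups in this way was not counted. Mt3 was 0.337% and 0.369% of the Mt1 level in the control, 10.7% and 10.5% with XBP1S and 0.389% and 0.276% with ATF6N. Against Mt2, Mt3 had 0.0465 and 0.0601 of its level in AAV-GFP, 0.0450 and 0.0312 in AAV-ATF6N and 1.99 and 2.25 times its level in AAV-XBP1S. Mt3 was thus the least abundant of the 3 in 4 libraries and stood ahead of Mt2 in both AAV-XBP1S libraries.

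**Figure D4:**
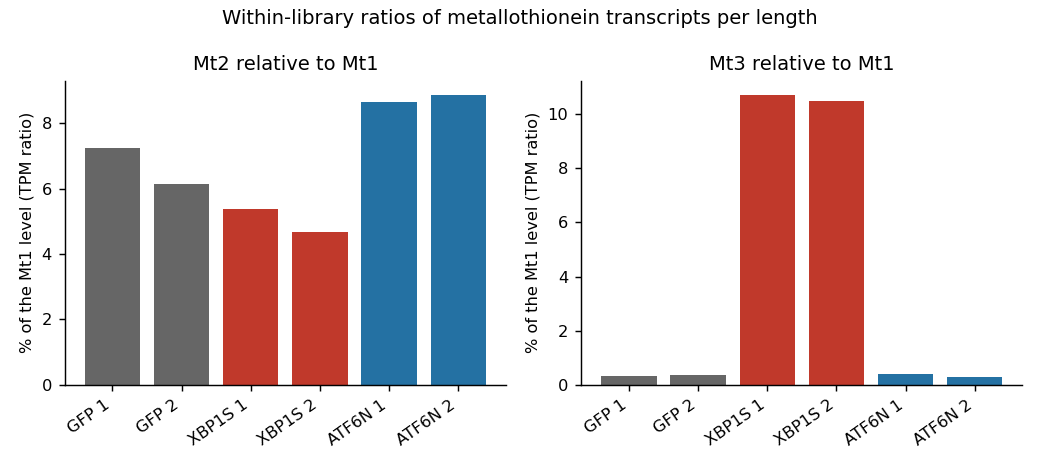
Level of Mt2 (left) and Mt3 (right) as a percent of the Mt1 level in the same library (TPM ratio, axes from 0), 1 bar per library, grey AAV-GFP, red AAV-XBP1S and blue AAV-ATF6N. Mt2 bars run from 4.67% to 8.85%, and Mt3 bars are 10.5% and 10.7% in AAV-XBP1S and under 0.4% elsewhere.

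Summed per length, the members stood at 1220 and 797 TPM in the control, 666 and 502 TPM with XBP1S and 1040 and 1020 TPM with ATF6N. Both AAV-XBP1S libraries were the lowest. Mt1 made up 93.0% and 93.9% of this pool in the control, 86.2% and 86.8% with XBP1S and 91.7% and 91.6% with ATF6N. The share of Mt3 was 9.21% and 9.13% in AAV-XBP1S and at most 0.357% in the other 4 libraries. On this scale the mean of Mt1 was 943 ± 274 TPM in the control, 505 ± 98 TPM with XBP1S and 944 ± 12.4 TPM with ATF6N (SD, n = 2 each). That of Mt2 was 64.1 ± 25.8, 25.6 ± 7.44 and 82.6 ± 0.263 TPM in the same order, so here AAV-ATF6N stood above the control. By TPM, Mt1 ranked between 134 and 284 among all genes of the table in the 6 libraries. Mt3 ranked 1933 and 2830 in AAV-XBP1S and between 7781 and 9707 elsewhere.

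Reads of the members can be told apart. In the GENCODE M21 transcripts, no stretch of 31 bases of Mt1 or Mt3 occurs in a transcript of another gene, and 3 of 573 from Mt2 do, all in Pip5k1a. No other gene of the table overlaps a member. Within 200 kb of the cluster the table lists 8 other genes, of which Mt4 and Mir138-2 had 0 counts. None of the 6 tested passed in either comparison, among them Bbs2, a ciliary transport gene (log2 fold change 0.29 in AAV-XBP1S), and the nucleoporin gene Nup93 (0.07), the nearest tested neighbour after Mt1. Ogfod1 had -0.28 and Nudt21 -0.22, and Slc12a3, with a mean of at most 0.104 CPM in any group, had 1.59.

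No gene of metal handling passed in either comparison in the main edgeR fit of all 6 libraries. In AAV-ATF6N, DESeq2 and edgeR without a filter on low counts each called Slc39a14 and Atp7a, and the replicate block called Slc39a14. Calls from fits that leave 1 library alone in a group are not listed. MTF1 and its known targets had a median log2 fold change of -0.18 over 9 tested members in AAV-XBP1S and -0.01 in AAV-ATF6N. Mtf1 itself stood at 17.3 and 21.7 CPM in the control, 17.7 and 16.5 CPM with XBP1S and 19.8 and 19.0 CPM with ATF6N, a difference within the spread of the control. Slc30a1, the zinc exporter of the plasma membrane and a classical MTF1 target, had -0.41 (SE 0.23; edgeR adjusted p = 0.542) with XBP1S and -0.31 (SE 0.23; 0.490) in AAV-ATF6N. Of this list the smallest p was that of Csrp1, a LIM protein gene, in AAV-XBP1S (0.54, SE 0.20, edgeR adjusted p = 0.383) and of Ndrg1 in AAV-ATF6N (-0.73, SE 0.24, 0.310).

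The 8 tested zinc exporters had medians of -0.01 and 0.18 and the 11 tested zinc importers 0.15 and 0.03, in AAV-XBP1S and AAV-ATF6N. In AAV-XBP1S the smallest p among exporters was that of Slc30a7, which loads zinc into the early secretory pathway (0.71, SE 0.26, edgeR adjusted p = 0.382), and among importers that of Slc39a11 (0.71, SE 0.27, 0.395). In AAV-ATF6N the smallest were those of the exporter Slc30a5 (0.44, SE 0.26, edgeR adjusted p = 0.431) and of Slc39a14, a zinc and manganese importer (1.5, SE 0.42, 0.255). Slc39a14 stood at 41.8 and 92.5 CPM in the control, 51.3 and 86.8 CPM with XBP1S and 186 and 193 CPM with ATF6N. Both AAV-ATF6N libraries lay above all others, and how often other genes do so was not counted. The 14 tested copper genes had medians of -0.17 and -0.21, with the smallest p at Steap4 (0.83, SE 0.36, edgeR adjusted p = 0.446) in AAV-XBP1S and at the copper pump gene Atp7a (1.34, SE 0.35, 0.232) in AAV-ATF6N.

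Among genes of the stimuli that induce metallothioneins, the glucocorticoid response, a list drawn up with earlier results of these data known, held the only calls of the edgeR fit of all 6 libraries. In AAV-XBP1S 2 of its 12 tested members fell and none rose, against 0.315% of all genes tested, with a median log2 fold change of -0.70 and 9 below 0. In AAV-ATF6N none passed (median -0.06). The transcription factor gene Zbtb16 stood at 61.3 and 51.0 CPM in AAV-GFP and 13.0 and 13.9 CPM in AAV-XBP1S, and at 73.0 and 58.8 CPM in AAV-ATF6N. Klf15, a glucocorticoid-induced regulator of metabolism in heart muscle, stood at 162 and 191 CPM, 57.1 and 52.1 CPM, and 129 and 136 CPM in the same order of groups. Their log2 fold changes in AAV-XBP1S were -2.06 (SE 0.22; edgeR adjusted p = 0.0235) for Zbtb16 and -1.70 (SE 0.20; 0.0322) for Klf15. Leaving out either AAV-XBP1S or either AAV-ATF6N library ended both calls (adjusted p up to 0.369 and 0.450), with log2 fold changes of -2.17 to -1.93 and -1.81 to -1.55 over all 6 leave-outs, and with library totals alone Klf15 was not called (0.0641). The stress-induced gene Ddit4, which DESeq2 called, had -1.36 (SE 0.20; edgeR adjusted p = 0.0628), and the glucocorticoid receptor gene Nr3c1 0.17. Fkbp5, a co-chaperone of that receptor, was lowest in AAV-XBP1S, at 5.48 and 8.12 CPM against 9.96 and 14.6 CPM in AAV-GFP. It was highest in AAV-ATF6N, at 21.9 and 20.2 CPM. The edgeR adjusted p were 0.361 and 0.351, and the gene-length offset called it in AAV-XBP1S.

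In the cytokine and STAT3 list none of 12 passed the edgeR test, with medians of -0.09 in AAV-XBP1S and 0.58 in AAV-ATF6N. The smallest p in AAV-XBP1S was that of Cebpb (-1.84, SE 0.27, edgeR adjusted p = 0.0629), a factor of the acute phase response, which DESeq2 called along with Cebpd (-1.96, SE 0.31, edgeR 0.0786). In AAV-ATF6N it was that of Cebpd (-1.37, SE 0.30, edgeR adjusted p = 0.159), which DESeq2 called there along with Fgl2. Genes of oxidative and heavy metal stress had medians of -0.06 and 0.37 over 10 tested members, with none past the edgeR test. Hmox1, the heme oxygenase gene that heavy metals induce, had the smallest p in both comparisons, at 0.76 (SE 0.23, edgeR adjusted p = 0.294) with XBP1S and 1.10 (SE 0.23, 0.139) in AAV-ATF6N, where DESeq2 called it. The hypoxia genes had medians of -0.10 and 0.06 over 12 members, with none past the edgeR test. Their smallest p were at Egln3, an oxygen-sensing hydroxylase gene (-0.90, SE 0.21, edgeR adjusted p = 0.205), in AAV-XBP1S, where DESeq2 called it and the gene-length offset called Vegfa, and at Ankrd37 (-1.05, SE 0.30, 0.262) in AAV-ATF6N. Over the 83 tested genes of the 8 lists, edgeR called 2 (2.41%) in AAV-XBP1S and 0 in AAV-ATF6N, against 0.315% and 0.514% of all genes tested. Both calls are in the glucocorticoid list. The lists were drawn up with earlier results of these data known, so these shares cannot be separated from that choice. DESeq2 called 6 and 5 of the 83, and 520 and 593 of all genes.

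**Figure D5:**
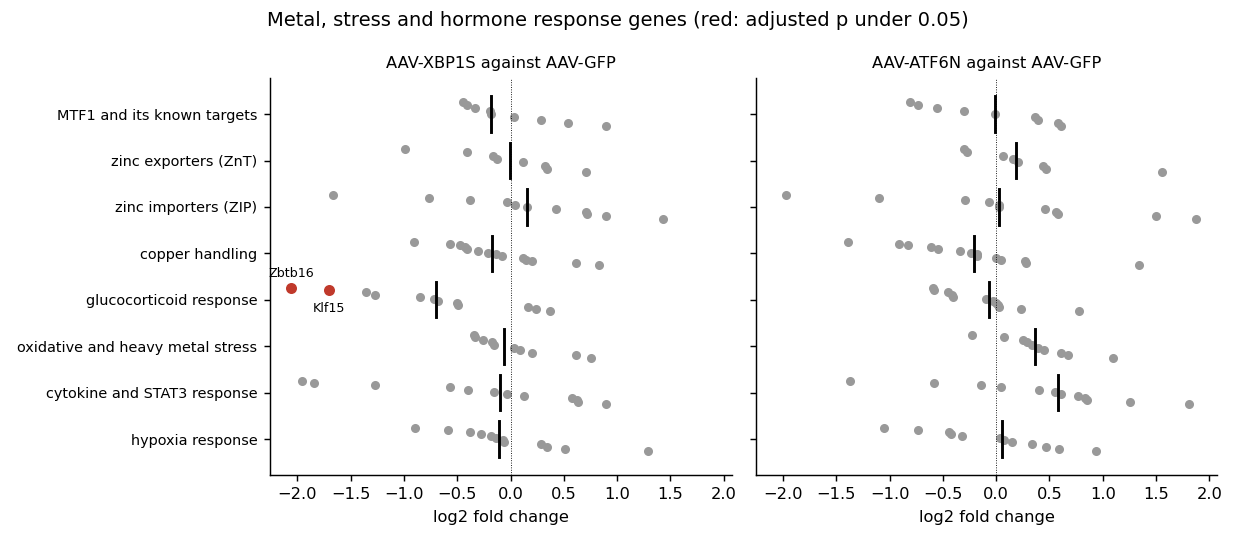
Log2 fold change against AAV-GFP of the tested members of 8 gene lists (points, 1 row per list; black bars are medians; red marks an edgeR adjusted p under 0.05). Zbtb16 and Klf15 are the 2 red points, both in AAV-XBP1S, where the glucocorticoid list has a median of -0.70.

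The cell types that could carry Mt3 RNA were looked at through markers. Of 8 markers of Schwann cells, glia and neurons, 1 to 3 were at 0 in each library, and their summed level was 20.7 and 34.3 CPM in the control, 41.3 and 55.9 CPM with XBP1S and 77.2 and 81.0 CPM with ATF6N. Most of that sum was Aqp4, a water channel gene, at 72.7 and 70.6 CPM in AAV-ATF6N. Without Aqp4, left out after the values were seen, the other 7 markers summed to 3.90 and 3.02 CPM in the control, 20.1 and 21.5 CPM with XBP1S and 8.39 and 6.51 CPM with ATF6N. They were then highest where Mt3 was highest, and most of the sum there was Tubb3. The astrocyte gene Gfap was at 0 in AAV-XBP1S. The neuronal tubulin gene Tubb3 was at 14.9 and 14.9 CPM there, against 0.061 and 0 CPM in AAV-GFP and 2.71 and 2.33 CPM in AAV-ATF6N, and passed in both comparisons (edgeR adjusted p = 0.00825 and 0.0248). Without Aqp4 and Tubb3 the other 6 summed to 3.02 to 3.84 CPM in AAV-GFP, 5.21 to 6.60 CPM in AAV-XBP1S and 4.18 to 5.68 CPM in AAV-ATF6N. Fibroblast markers summed to 472 and 609 CPM in the control, 820 and 969 CPM with XBP1S and 799 and 836 CPM with ATF6N, with all 8 of 8 above 0 on the log2 scale in AAV-XBP1S (median 0.73) and none past the test. In AAV-XBP1S all 8 endothelial markers were also above 0 (median 0.49), as were 8 of 8 of macrophages and leukocytes and 8 of 8 of smooth muscle and pericytes. None passed, and Fabp4 (0.00866) and Acta2 (0.000356) lay almost at 0. The median over all genes tested was -0.01. Macrophage and leukocyte markers summed to 45.1 to 75.4 CPM over all libraries. Smooth muscle and pericyte markers summed to 937 and 1040 CPM in the control, 1060 and 1150 CPM with XBP1S and 1300 and 1250 CPM with ATF6N. Erythroid markers ran from 40.7 to 277 CPM, highest in AAV-GFP replicate 1, and 1 of the 2 tested, the heme synthesis gene Alas2, fell in AAV-ATF6N (-1.75, edgeR adjusted p = 0.047). Their part in the metallothionein values was not tested.

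Genes whose levels followed those of each member most closely were ranked by Pearson's r of log2 CPM over the 6 libraries, among 8882 genes with a mean of at least 5 CPM, as a description. Nearest to Mt1 were the kinase gene Mylk4 (r = 0.997), Sap30l (0.991), Flot1 (0.991), Akap8l (0.988) and Myadml2 (0.987), and nearest to Mt2 were Phyhd1 (0.997), Vamp2 (0.996), Pccb (0.995) and Lrrfip1 (0.993). Mt1 and Mt2 had r = 0.970 with each other. Nearest to Mt3 were Ggh (0.995), the sterol-related gene Tmem97 (0.993), the tubulin gene Tuba1a (0.991), Samhd1 (0.988) and Bin3 (0.988). Their amplitude was smaller than that of the members: Tmem97 was at 19.4 and 17.2 CPM in AAV-XBP1S and 8.31 to 10.8 CPM elsewhere, and Mylk4 ranged from 27.3 to 54.5 CPM. Mt3 had r of -0.660 with Mt1 and -0.757 with Mt2. With 6 libraries in 3 groups these values rest on few independent points and on the AAV-GFP libraries that all comparisons share.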

How the data were processed

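Counts per gene and library were deposited by the authors as whole numbers. The submitters' processing notes name STAR, featureCounts and mm10, without versions, annotation release or strand setting. The SMART-Seq cDNA kit that the labels' protocols name does not keep strand. The authors' deposited comparison tables give, per the file headers, a mean normalized signal, log2 fold changes, their standard errors and Wald statistics as scores, and p-values; the log2 values and, for Mt1 and Mt2, adjusted p-values were copied. All 6 count columns were used.

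The members and gene lists were chosen with earlier results of these data known. Genes were kept by edgeR's filterByExpr (count minimum 10; 14587 genes). edgeR 4.0.16 (R 4.3.3) fitted TMM-scaled counts of 6 libraries by group alone (3 residual degrees of freedom), with two-sided quasi-likelihood tests, Benjamini-Hochberg adjustment over all genes tested and a threshold of 0.05. The fit was tested on simulated data. SE is the log2 fold change divided by the square root of F. CPM use the TMM-scaled library size; TPM use the table's gene lengths. Intervals and floors (3 counts) cover counting error only. Missing list symbols were matched through RefSeq synonyms (5). Of each list, the text names members past the threshold and the one of smallest p per comparison. Other list members and markers (Mtf1, Slc30a1, Nr3c1, Ddit4, Fkbp5, Gfap, Aqp4, Tubb3, Alas2, Vegfa, Fgl2) were named after their values were seen. A few genes that these rules would name are not reported here. Alternatives were other scalings and filters, DESeq2 1.42.0, robust estimation, a gene-length offset, a replicate block, only the 4 libraries compared, and leaving out each library.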

Additional observations from a re-analysis of the deposited data

How the results depend on the processing

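In AAV-XBP1S against AAV-GFP, Mt1 and Mt2 kept their direction under every alternative run. Leaving out 1 library gave -1.74 to -0.66 for Mt1 and -2.25 to -0.93 for Mt2, and Mt3 3.24 to 4.18. Among the alternatives that keep both libraries of each group compared, Mt1 passed with DESeq2 (-1.32) and the gene-length offset (-1.06). Mt2 passed with those (-1.75 and -1.47), with low counts left in (-1.74, edgeR adjusted p = 0.0252) and with the replicate block (-1.70, 0.0480). Calls from fits that leave 1 library alone in a group are not listed. The labels do not say whether same-numbered samples are pairs. Correlations of same-numbered deviations were 0.379 for AAV-GFP with AAV-XBP1S, and -0.0402 and -0.0480 for AAV-ATF6N with AAV-GFP and with AAV-XBP1S. With 2 libraries a group they cannot settle it. In AAV-ATF6N against AAV-GFP the direction reversed with the gene-length offset for Mt1 (0.23) and Mt2 (0.61), and for Mt2 also with library totals alone (0.051) and the replicate block (0.13); leaving out 1 library gave -0.83 to 0.27 and -0.56 to 0.78, and for Mt3 -0.84 to 0.13, with 0.16 under the offset. Between the treated groups, leaving out 1 library gave 0.62 to 1.28 for Mt1, 1.32 to 2.19 for Mt2 and -4.38 to -3.70 for Mt3. Library totals alone moved the median of all genes in AAV-XBP1S to 0.25.

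The 46 genes called in AAV-XBP1S became 233 without a filter, 520 with DESeq2, 407 with the offset (116 higher, 291 lower; with library totals alone 38 and 12), 165 with the block and 13 with only the 4 libraries compared, and 2 to 242 with 1 library left out. The 75 in AAV-ATF6N became 348, 593, 216, 237 and 8 in the same order, and 4 to 3052. The 117 higher of 216 there compare with 51 of 75. Of the list genes, the 2 called in AAV-XBP1S became 1 with library totals alone, 5, 6, 7, 5 and 0, and 0 to 5; the 0 in AAV-ATF6N became 4 without a filter, 5 with DESeq2 and 2 with the block, and 0 to 23. Where a cause is not shown by the alternative's construction, the cause was not tested. With 2 libraries a group, a fit without 1 library assumes the lone library to vary like the others. Depth limits mainly Mt3 outside AAV-XBP1S, at 48 to 157 counts.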
